A study of Homo sapiens with 6 samples.

Results

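The ATP response of 2B4 was read from 3 bead arrays, chosen by their titles from 6 in the series: 1 array of 2B4 cells given ATP for 6 h, 1 of 2B4 cells given ATP for 12 h and 1 of 2B4 cells without ATP. 2B4 and 1E8 are subclones of the human prostate cancer cell line PC-3M, itself a metastatic variant of PC-3, and 2B4 is the less metastatic of the pair. ATP was given at 100 µM in serum-containing medium. The labels give no time for the control array, so a difference from it cannot be told apart from a difference in time in culture. The 3 matching 1E8 arrays serve only as the comparison. Every group holds 1 array, each subclone is 1 clone, and no value has a replicate of its own.

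Extracellular ATP acts on 2 families of P2 receptors at the cell surface, the ligand-gated P2X channels and the G-protein-coupled P2Y receptors. Ectonucleotidases on the cell surface turn ATP into ADP, AMP and adenosine, which has receptors of its own. In epithelial cancer cells, P2 receptor signals are known to reach calcium stores, the ERK kinases and shed growth factors of the EGF family.

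The deposited intensities are linear, and their array means lay between 193 and 194. A gene was counted when it exceeded a detection limit, set from the dim values of each array, on at least 1 of the 3 2B4 arrays. The limits were 45.3 (ATP 6 h), 43.1 (ATP 12 h) and 52.2 (control). There were 9941 such genes, 8821 of them above the limit on all 3 arrays. Differences are given on the scale of log2(intensity + 16), ATP minus control, which understates the change of dim genes. Over the genes counted the 2B4 arrays correlated with each other at 0.985 to 0.989, and with 1E8 arrays at 0.960 to 0.973, where genes are not independent replicates. The 1E8 control array stood apart from the other 5, with a limit of 29.2 against 43.1 to 52.2. Of 6 epithelial markers, 4 (KRT8, KRT18, KRT19 and EPCAM) were above the limit on each 2B4 array and CDH1 and KRT7 were not. None of 6 prostate luminal markers, among them KLK3, was above the limit, as is known for PC-3. Of 10 leukocyte markers 1 was above it (CD68), of 6 endothelial markers 2 (PECAM1 and ESAM), and of 7 fibroblast markers none on the ATP arrays and 1 on the control array (ACTA2).

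At both times 72 genes (0.724% of those counted) were at least 1.5-fold higher with ATP and 79 genes (0.795%) at least 1.5-fold lower. Restricted to genes that exceeded the limit on each 2B4 array, these counts were 32 (0.363%) and 45 (0.51%). At 6 h alone 178 genes (1.79%) passed 1.5-fold upward and 222 (2.23%) downward, and at 12 h 238 (2.39%) and 257 (2.59%). Both differences use the same control array, so an aberrant value on that array enters both. A 2-fold limit kept 15 of the 72 and 6 of the 79. The last genes inside 1.5-fold were EFNA4, with 113 and 109 on the ATP arrays against 67.1 on the control array, and H1-10, with 96.2 and 94.5 against 152. CDH11, with 1010 and 941 against 626, and SNF8, with 518 and 530 against 802, lay just outside.

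**Figure D1:**
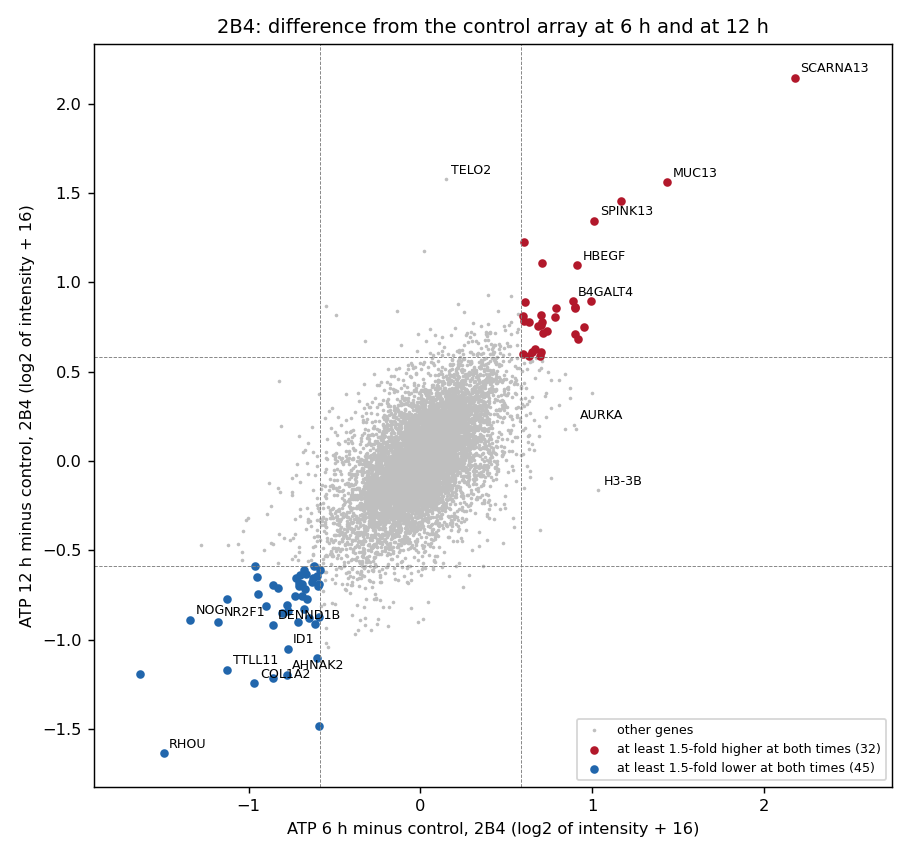
Difference from the 2B4 control array at 6 h (horizontal axis) and at 12 h (vertical axis), in log2 of intensity + 16, for the 8821 genes that exceeded the limit on each 2B4 array. Dashed lines mark 1.5-fold, red points the 32 genes higher and blue points the 45 genes lower at both times. Both axes share the control array, which by itself stretches the cloud along the diagonal.

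limma, fitted over all 6 arrays with the 6 h and 12 h arrays of a subclone as the samples of its ATP group, called 0 genes (0%) for ATP against control in 2B4 after Benjamini-Hochberg adjustment. At an unadjusted p under 0.05 it held 502 genes higher and 507 lower. The smallest adjusted p in limma was 0.0694, for SNORA79 and SCARNA13. With 2 residual degrees of freedom the counts and values below are therefore descriptions of these arrays, and the spread in the fit is that between 6 h and 12 h.

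The highest values at both times belonged to a nuclear small RNA, a mucin and a group of secreted or membrane proteins. MUC13, a membrane mucin of epithelia, had 206 at 6 h and 226 at 12 h, against 65.8 in the control (differences 1.44 and 1.56). SPINK13, a Kazal-type protease inhibitor listed under the older symbol SPINK5L3, had 140 and 180, against 61.0 (1.01 and 1.34). Both genes lay above their control by more than the 6 h and 12 h arrays lay from each other. They were ranked by the smaller of the 6 h and 12 h differences, which favours this pattern, so it gives no support.

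HBEGF, a membrane-anchored ligand of the EGF receptor that is shed to act, had 155 at 6 h and 178 at 12 h with ATP, against 74.8 in the control (0.91 and 1.10). ATP1B1, the beta subunit of the sodium pump, had 556 and 517, against 271 (0.99 and 0.89). B4GALT4, a Golgi galactosyltransferase, had 184 and 185, against 92.2 (0.89 at either time). In all 3 the ATP arrays were about equal to each other and the control array lay apart, which the same ranking favours.

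DHRS9, a dehydrogenase of retinoids and steroids, had 201 and 195, against 100.4 in the control (0.90 and 0.86). SLIT2, the secreted ligand of ROBO receptors, had 207 and 200 with ATP, against 103 (0.90 and 0.86). ANXA3, a calcium-dependent membrane-binding protein, had 102 and 108, against 52.4, which is just above the control's limit (0.79 and 0.86). Also among the 15 highest were FAM200C, CSRNP1 (a nuclear protein first described as axin-induced), ULBP2 (a stress ligand of the NKG2D receptor of natural killer cells), TCF3 (the E-protein transcription factor that ID proteins bind) and RBM17 (a splicing factor). Their differences lay between 0.71 and 0.96. TCF3 had 140 at either time with ATP, against 79.3 in the control. Among the genes of the 15 named here, the adjusted p in limma was between 0.0694 (SCARNA13) and 0.462 (SLIT2).

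**Figure D2:**
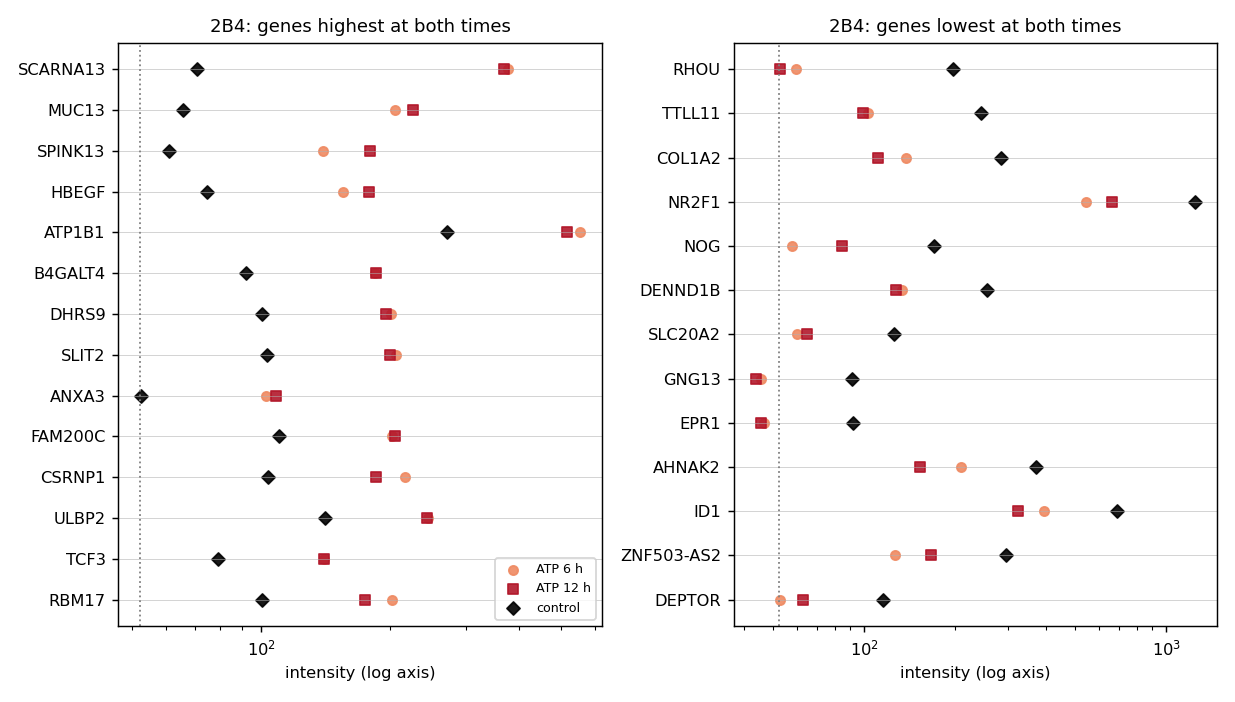
Intensity (log axis) on the ATP 6 h, ATP 12 h and control arrays of 2B4 for 14 of the 15 genes highest (left) and 13 of the 15 lowest (right) at both times. The dotted line is the control array's limit of 52.2, and GNG13 and EPR1 are the genes drawn whose ATP values both lie to the left of it.

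Cajal body RNAs were among the genes higher at both times. These small nuclear RNAs, named SCARNA, guide the chemical modification of spliceosomal RNAs. Most are cut out of the introns of longer host transcripts. The table has 24 SCARNA entries, 8 were counted, and 7 of the 8 were at least 1.5-fold higher at both times. Over all genes counted 0.724% were. The other 16 entries were not above the limit on any 2B4 array. Only SCARNA13 and SCARNA10 were above the limit on the control array. The other 6 passed the filter through the ATP arrays and had to be higher there, so the count of 7 gives no support by itself.

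SCARNA13 had 378 at 6 h and 368 at 12 h with ATP, against 70.8 in the control (2.18 and 2.14, limma SE 0.16 for their mean). SCARNA10, the exception, had 273 and 239, against 263. SCARNA18 had 159 and 140, against 21.4 in the control, a ratio of at least 2.85-fold. Here a bound sets the mean of the ATP arrays over the control array's limit. SCARNA8 had 135 and 108, against 12.5 (at least 2.32-fold), and SCARNA16 had 103 and 122, against 35.3 (at least 2.14-fold). SCARNA11, SCARNA12 and SCARNA14 had ATP values between 39.2 and 76.4, near the limits, against control values between -3.17 and 19.4. SCARNA14 was above the limit at 6 h only.

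A pair of H/ACA small nucleolar RNAs, the class that guides pseudouridine formation, went the same way. SNORA12 had 274 and 236 with ATP, against 41.9 in the control (at least 4.87-fold). SNORA79 had 138 and 114, against 6.47 (at least 2.40-fold). They were the 2 of 22 SNORA genes counted that passed 1.5-fold upward at both times, beside 0.724% of all genes. Both were under the limit in the control and were counted through the ATP arrays, so this count gives no support by itself. The median of the 22 was 0.06 at 6 h and -0.20 at 12 h. Of 17 SNORD genes counted, the box C/D class, none passed upward and 1 passed downward (SNORD14A), beside 0.795% of all genes downward. The medians of the 17 were -0.13 and -0.32.

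Genes whose span holds these small RNAs in the RefSeq gene table (GRCh38.p14, used for neighbours without regard to strand) were read beside them. SNHG10, around SCARNA13, had 45.8 and 54.6 with ATP, against 65.3 in the control (-0.39 and -0.20), opposite to SCARNA13. PHB2, around SCARNA12, had -0.13 and -0.35, and CHD4, around SCARNA11, had 467 and 443, against 467. CWF19L1, around SNORA12, had 0.35 and 0.15, and TMEM167A, around SCARNA18, had 0.08 and 0.34. TIPIN, around SCARNA14, lay on the same side of its control as the small RNA, with 71.4 and 82.8, against 51.1 (0.38 and 0.56), a control value just under the limit. Of the 8 spanning genes that were counted, none passed 1.5-fold at either time. Whether the probes read the processed small RNA or a longer transcript was not tested.

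In 1E8, whose arrays were not used to choose the genes counted, 8 of the 8 Cajal body RNAs were positive at both times. Over all genes counted 29.9% were positive at both times there. The medians of the 8 were 1.23 at 6 h and 0.49 at 12 h. Both differences use the 1E8 control array, which stood apart, so the signs at 6 h and 12 h are not independent. On that array SCARNA18, SCARNA8, SCARNA12, SCARNA14 and SCARNA11 were under the limit of 29.2. The filter on the 2B4 arrays raises the 2B4 medians, so the size of the response is not compared between the subclones over the 8. SCARNA13 had 209 and 168 in 1E8 with ATP, against 79.2 in the 1E8 control. limma's test of the difference between subclones gave 1.07 for SCARNA13 (adjusted p = 0.264) and 2.16 for SNORA79 (adjusted p = 0.151).

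**Figure D3:**
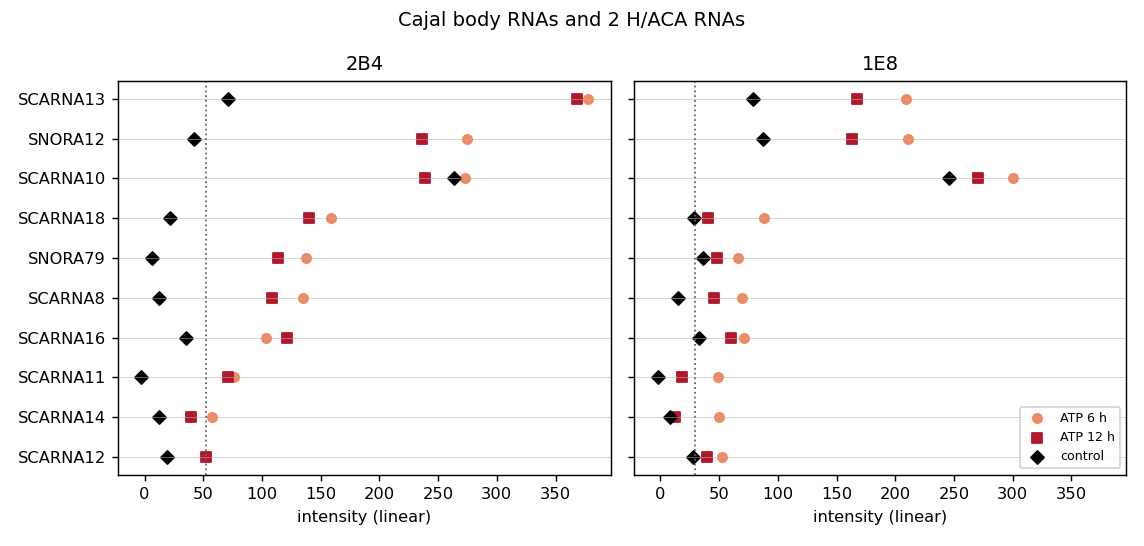
Intensity (linear axis) on the ATP 6 h, ATP 12 h and control arrays of 2B4 (left) and 1E8 (right) for the 8 Cajal body RNAs counted, SNORA12 and SNORA79. Dotted lines are the control arrays' limits (52.2 and 29.2), and in 2B4 SCARNA10 is the RNA whose control value lies among its ATP values.

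Among the genes lower with ATP were a small GTPase, a fibrillar collagen, a nuclear receptor and several BMP pathway genes. RHOU, an atypical small GTPase that acts on the actin skeleton and adhesion, had 59.5 at 6 h and 52.6 at 12 h, against 196.7 in the control (-1.49 and -1.63). COL1A2, a chain of type I collagen, had 138 and 111, against 284 (-0.97 and -1.24). NR2F1, an orphan nuclear receptor studied in tumour cell dormancy, had 543 and 663 with ATP, against 1250 in the control (-1.18 and -0.90). RHOU's ATP values were close to the limits of 45.3 and 43.1.

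TTLL11, an enzyme that adds glutamate chains to tubulin, had 103 and 99.3, against 243 in the control (-1.12 and -1.17). AHNAK2, a giant scaffold protein, had 209.8 and 153, against 371 (-0.78 and -1.19), and almost the same in 1E8 (-0.77 and -1.12). DEPTOR, an inhibitor of the mTOR kinase, had 52.5 and 62.6, against 116 (-0.94 and -0.75). DENND1B (an exchange factor for Rab GTPases), SLC20A2 (a phosphate importer), ZNF503-AS2 (a noncoding RNA), GNG13 (a G-protein gamma subunit) and EPR1 (transcribed opposite to the survivin gene BIRC5) lay between -0.77 and -1.13. Among the genes of the 15 lowest named here, the adjusted p in limma was between 0.337 (TTLL11) and 0.441.

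A further 6 genes were above the limit in the control and on neither ATP array, with the largest lower bounds of this kind. They were SHISAL1 (at least 1.92-fold lower), ZNF837 (1.91), EPM2AIP1 (1.89), RPPH1, the RNA subunit of RNase P (1.80), GET3, an ATPase that inserts tail-anchored proteins (1.79), and ACCS (1.71). Their control values were all between 75.7 and 84.6. ANKRD10 was the only gene outside the small RNAs among the 6 largest bounds upward, with 125 and 125, against 48.8 in the control (at least 2.39-fold).

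The BMP and TGF-beta list had the lowest medians of the lists with 8 or more genes counted. BMP ligands activate SMAD transcription factors, whose direct targets include the ID genes, inhibitors of basic helix-loop-helix factors, and feedback inhibitors such as SMAD6, NOG and BAMBI. Of 25 genes on the list 11 were counted, all above the limit on all 3 arrays. Of these 11, 3 passed 1.5-fold downward at both times, none passed upward, 8 were negative and none positive at both times. Over all genes counted 34.5% were negative and 37% positive at both times, and 0.795% passed downward and 0.724% upward. The list's median was -0.46 at 6 h and -0.45 at 12 h, beside 0.01 at either time over all genes.

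ID1 had 395 at 6 h and 323 at 12 h with ATP, against 686 in the control (-0.77 and -1.05). ID3 had 351 and 353, against 487 (-0.46 and -0.45), and ID2 had 172 and 208, against 255 (-0.53 and -0.27). NOG, the secreted BMP antagonist noggin, had 57.6 and 84.7, against 170.3 in the control (-1.34 and -0.89). All 4 control values lay above both of their ATP values.

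SMAD6, an inhibitory SMAD, had 96.3 and 85.2, against 133 in the control (-0.40 and -0.55). RGS4, a brake on G-protein signals, had 839 and 981, against 1261 (-0.58 and -0.36). CCN2, a matrix-associated growth factor induced by TGF-beta, was on opposite sides of its control at the 2 times (0.43 and -0.32), as were TGFBR2 and FST. BAMBI, a pseudoreceptor, lay close to its control (-0.06 and -0.24). Upward, the ligand gene BMP6 was among the 72 genes, with 105 and 110 against 58.4. It was singled out after its values were seen.

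In 1E8 the medians of the same list were -0.16 and -0.35. Over all genes counted 49.0% were negative and 29.9% positive at both times there. Of the list's 11 genes 8 were negative and 1 positive (6 and 2 with arrays scaled to 1 median). The positive one was ID1, with 744 and 636 in 1E8 with ATP, against 527 in the 1E8 control (0.49 and 0.26). limma's difference between the ID1 responses was -1.29 (SE 0.25, adjusted p = 0.264), opposite in sign on every array but not past the threshold. For NOG the difference was -0.71 (adjusted p = 0.487).

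**Figure D4:**
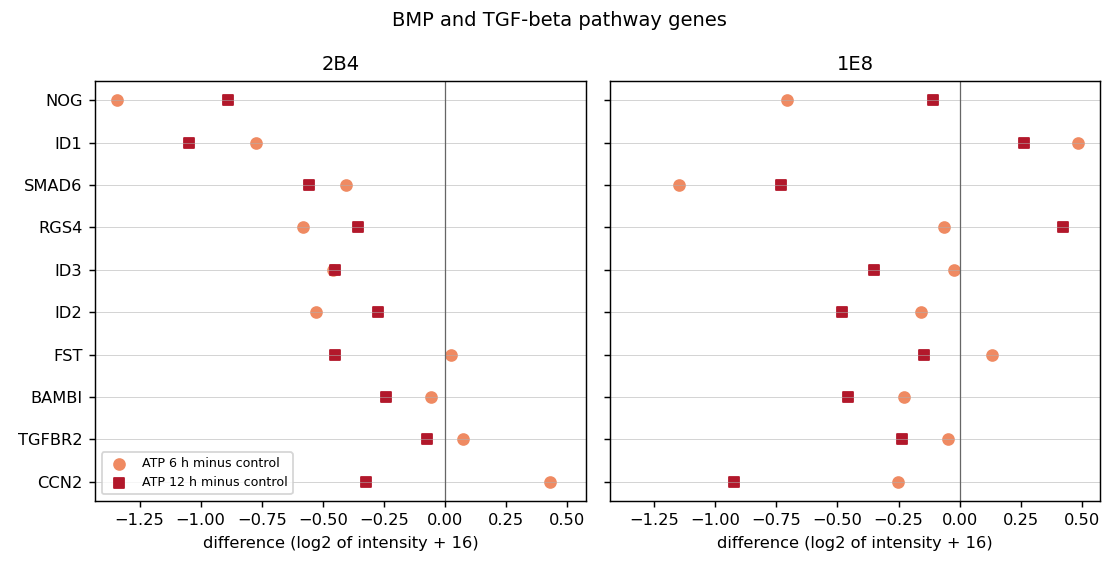
ATP minus control at 6 h (circles) and 12 h (squares) in log2 of intensity + 16, for 10 of the 11 BMP and TGF-beta pathway genes counted, in 2B4 (left) and 1E8 (right). In 2B4 7 of those drawn lie to the left of 0 at both times, and ID1 lies to the right of 0 at both times in 1E8.

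Genes of the EGF receptor and ERK route were read beside HBEGF, a ligand of that receptor. HBEGF was the 1 of 3 counted EGF family genes that passed upward at both times, beside 0.724% of all genes. TGFA, another ligand, had 111 at either time, against 109. Of 11 ERK feedback genes none passed 1.5-fold at both times, 7 were negative (63.6%) and 1 positive (9.09%) at both times, beside 34.5% and 37% of all genes. The medians were -0.02 at 6 h and -0.16 at 12 h. DUSP6, the phosphatase that turns off ERK, had 188 and 222 with ATP, against 282 in the control (-0.55 and -0.32). SPRED1, an inhibitor of RAS to RAF signalling, had 457 and 368, against 589 (-0.36 and -0.66).

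Of 15 immediate early and AP-1 genes counted, 9 were positive (60%) and 3 negative (20%) at both times, beside 37% and 34.5% of all genes. None passed 1.5-fold at both times. JUN, an AP-1 subunit, had 158 and 154, against 121 (0.35 and 0.31), and IER5, an early response gene, 0.62 and 0.32. MYC, the growth transcription factor, had 1760 and 2056 with ATP, against 2878 in the control (-0.70 and -0.48). FOSL1, another AP-1 subunit, had 552 and 431, against 711 (-0.35 and -0.70). CXCL8, the neutrophil chemokine interleukin-8, had 133 at 6 h and 57.8 at 12 h, against 43.1 in the control, which is under its limit, and in 1E8 757 and 271, against 210.4. CDKN1A, the p21 inhibitor of cyclin-dependent kinases, had 396 and 485, against 254 in the control (0.61 and 0.89). It was the 1 of 14 p53 target and growth arrest genes that passed upward at both times, beside 0.724% of all genes. PC-3 cells are known to lack functional p53.

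Interferon-stimulated genes were read at each time. Interferons drive them through a transcription factor complex that includes STAT2 and IRF9 and binds the interferon response element in their promoters. Of 40 genes on the list 18 were counted. At 12 h 5 of the 18 were at least 1.5-fold higher (2.39% of all genes counted were), and at 6 h 1 was (1.79% of all genes). Of the 5, 3 were under the limit in the control and were counted through the ATP arrays where they are high, so the count gives no support by itself. The other two were IRF9 and IFI44L. The median of the 18 was -0.02 at 6 h and 0.29 at 12 h. It takes in the genes counted through the ATP arrays, so it gives no support by itself either. Of the 18, 14 were above the limit on all 3 2B4 arrays. In 1E8 the medians were 0.12 and 0.05, and the difference between subclones was not tested for the list.

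IRF9 had 219 at 6 h and 345 at 12 h with ATP, against 139 in the control (0.61 and 1.22). It was the 1 gene of the list past 1.5-fold at both times, where 0.724% of all genes passed upward. IRF7, the transcription factor that amplifies interferon output, had 34.2 and 87.7, against 34.6, above the limit at 12 h only. IFI44L had 149 and 180, against 94.8 (0.57 and 0.82), ISG20, an exonuclease against viral RNA, 71.8 and 114, against 51.8, and IRF1 68.2 and 91.2, against 46.7. The control values of ISG20, IRF7 and IRF1 were under the control's limit, so these 3 entered through the ATP arrays. STAT2 had 369 and 548, against 396 (-0.10 and 0.45). ISG15, a ubiquitin-like modifier, had 1058 and 1465, against 1179 (-0.15 and 0.31). At the other end IFITM3, a membrane protein that blocks virus entry, had 368 and 336, against 420 (-0.18 and -0.31). For IRF9 the adjusted p in limma was 0.441.

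Promoters of this list were read from RefSeq (GRCh38.p14), 250 bases before to 50 bases after the gene start. The core of the interferon response element, searched on both strands, was written as GAAA, any 2 bases and GAAA again. It was present in 8 of the 14 promoters matched, those of ISG15, IFI6, IFI44L, SAMD9, IFIT3, IFIT1, IFITM3 and ISG20, and in 2.45% of the 6773 promoters matched among all genes counted. The 8 include IFI44L and ISG20, whose 12 h differences were 0.82 and 0.94, and IFITM3, at -0.31, so that genes with the motif were on both sides of the control. Of the genes shown here, IFI44L and ISG20 had 12 h values over 1.5-fold and ISG15 did not, and capitals mark the matches. IFI44L lies at chr1:78620198-78620497 on the plus strand, ISG20 at chr15:88638766-88639065 on the plus strand and ISG15 at chr1:1013247-1013546 on the plus strand.
IFI44L: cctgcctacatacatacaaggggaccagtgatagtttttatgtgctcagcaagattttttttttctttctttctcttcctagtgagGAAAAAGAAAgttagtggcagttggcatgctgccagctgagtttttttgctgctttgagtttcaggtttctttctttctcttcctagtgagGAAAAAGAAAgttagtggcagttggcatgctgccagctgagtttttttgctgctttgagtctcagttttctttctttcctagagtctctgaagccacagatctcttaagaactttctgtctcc
ISG20: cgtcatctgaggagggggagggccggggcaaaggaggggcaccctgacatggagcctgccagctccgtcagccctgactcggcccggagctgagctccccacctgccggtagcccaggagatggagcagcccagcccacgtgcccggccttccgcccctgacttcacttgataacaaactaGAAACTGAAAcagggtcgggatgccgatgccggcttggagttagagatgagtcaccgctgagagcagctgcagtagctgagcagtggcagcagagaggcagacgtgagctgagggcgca
ISG15: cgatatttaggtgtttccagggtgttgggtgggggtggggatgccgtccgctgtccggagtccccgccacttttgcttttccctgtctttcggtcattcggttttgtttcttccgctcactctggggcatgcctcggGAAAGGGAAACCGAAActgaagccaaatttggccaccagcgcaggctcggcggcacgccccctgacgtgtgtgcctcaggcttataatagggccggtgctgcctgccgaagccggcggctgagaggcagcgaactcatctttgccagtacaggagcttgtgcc
In IFI44L the 2 matches are the same 10 letters, in ISG15 2 matches overlap, and ISG20 has 1. A match is a string of letters and not a measured site.

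Of 23 cytosolic heat shock genes counted 10 were positive (43.5%) and 4 negative (17.4%) at both times, beside 37% and 34.5% of all genes, with medians of 0.15 at 6 h and -0.08 at 12 h (0.25 and -0.05 in 1E8). CRYAB, a small heat shock protein, was the 1 past 1.5-fold at both times, where 0.724% of all genes passed upward. It had 122 at either time against 74.9 in the control, and 70.8 and 67.5 against 38.9 in 1E8. DNAJB4, a co-chaperone of HSP70, had 98.6 and 86.4, against 60.4 (0.58 and 0.42). HSPA1A, the inducible HSP70, had 2013 and 1771, against 1520 (0.40 and 0.22). CHORDC1, a co-chaperone of HSP90, had 340.1 and 262, against 222 (0.58 and 0.23).

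The heat shock element, written as GAA, TTC and GAA with any 2 bases between neighbours and searched on both strands, was in 5 of 20 promoters of this list (HSPA6, DNAJB6, DNAJA1, CHORDC1 and HSPA8) and in 0.31% of the 6773. The CHORDC1 promoter is shown because that gene had the highest 6 h difference of the 5, and its 3 matches overlap in 1 run. It lies at chr11:90223000-90223299, printed along the minus strand, with the matches in capitals.
CHORDC1: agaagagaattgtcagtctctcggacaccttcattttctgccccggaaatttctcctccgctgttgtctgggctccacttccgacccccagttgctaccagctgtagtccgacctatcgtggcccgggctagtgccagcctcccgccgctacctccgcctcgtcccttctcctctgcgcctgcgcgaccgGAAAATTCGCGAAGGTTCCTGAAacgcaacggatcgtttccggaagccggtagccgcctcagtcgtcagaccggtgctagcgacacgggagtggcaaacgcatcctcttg
The same search for GGCGCC, a BMP response core, found it in 1 of 9 promoters of the BMP list (BAMBI), against 31.8% of all, and TCAC, any 1 base and CCAC, a sterol response element, in 0 of 15 cholesterol promoters, against 0.989% of all.

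Of 31 genes of the unfolded protein and integrated stress response, 13 were positive (41.9%) and 11 negative (35.5%) at both times. These shares were near the 37% and 34.5% of all genes, and the medians were 0.10 and 0.02. XBP1, a transcription factor of that response, had 1187 and 1085 with ATP, against 829 in the control (0.51 and 0.38), and in 1E8 0.02 and 0.00. DNAJB11, a chaperone of the endoplasmic reticulum, had 2550 and 2656, against 1867. Of 20 antioxidant genes under NRF2, 7 were positive (35%, near the share of all genes) and 4 negative (20%) at both times. None passed 1.5-fold at either. OSGIN1 had 508 and 512, against 369 (0.44 and 0.45).

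Of 34 lysosome and autophagy genes counted 18 were positive (52.9%) and 7 negative (20.6%) at both times, beside 37% and 34.5% of all genes. The medians were 0.05 and 0.15, and none passed 1.5-fold at both times. NEU1, the lysosomal sialidase, had 285 and 379.6 with ATP, against 193 in the control (0.53 and 0.92). GLA, the alpha-galactosidase lacking in Fabry disease, had 1266 and 1401, against 897 (0.49 and 0.63). NPC1, which exports cholesterol from lysosomes, had 772 and 780.2, against 558 (0.46 and 0.47), and SQSTM1, the autophagy receptor p62, 0.45 and 0.34.

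Housekeeping gene families lay off their controls by small amounts over many members. Of 72 oxidative phosphorylation genes counted, which encode subunits of the respiratory chain and ATP synthase, 48 were positive and 13 negative at both times, where 37% and 34.5% of all genes were. None passed 1.5-fold at both times, and the medians were 0.09 at 6 h and 0.12 at 12 h. UQCRB, a subunit of complex III, had 306 and 365 with ATP, against 226 in the control (0.41 and 0.65). NDUFV2, of complex I, had 1207 and 1126, against 891 (0.43 and 0.33), and COX6B1, of complex IV, 2088 and 2214, against 1673. CYCS, the electron carrier cytochrome c, was among the 72 genes higher at both times and had 95.8 and 92.9, against 55.2. It was singled out after its values were seen.

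Mitochondrial ribosomal proteins had 41 of 77 genes positive and 16 negative at both times, beside 37% and 34.5% of all genes. Their median was 0.07 at either time. MRPS33, a protein of the small subunit, had 641 and 699.6, against 486 (0.39 and 0.51). Proteasome subunits had 28 of 41 positive and 6 negative, with medians of 0.06 and 0.14. PSME3, the gamma regulator of the nuclear proteasome, had 350.1 and 373, against 251 in the control (0.46 and 0.54). Cytosolic ribosomal proteins, with 33 of 75 positive and 26 negative and medians of 0.02 and 0.00, did not share this shift in their counts. RPL8, the lowest of the 75 at either time, had 3501 and 3332, against 5134 (-0.55 and -0.62).

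In 1E8 the same families gave other counts, which depended on the scaling of the arrays. There 28 of 72 oxidative phosphorylation genes were positive and 30 negative at both times. Of the mitochondrial ribosomal genes 16 were positive and 50 negative, with medians of -0.14 and -0.11, and of the proteasome genes 11 were positive and 19 negative. Over all genes counted the 1E8 medians were -0.06 and -0.07, with 2970 positive and 4868 negative at both times. The base shares there thus lean negative. With arrays scaled to 1 median, 44 oxidative phosphorylation genes were positive and 19 negative in 1E8, and 26 proteasome genes positive and 11 negative, while the mitochondrial ribosomal genes had 28 positive and 39 negative. In 2B4 that scaling gave 51 and 11, 29 and 5, and 47 and 16 for the 3 families. With quantile normalization the 2B4 counts were 44 and 13, 24 and 5, and 37 and 23, and the 1E8 counts 31 and 29, 19 and 14, and 28 and 38. For MRPS33 limma's difference between the subclones was 0.74 (adjusted p = 0.272), for NDUFV2 0.84 (adjusted p = 0.264) and for PSMA2, a subunit of the proteasome core, 0.84 (adjusted p = 0.284). No list was tested as a whole.

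Of 21 cholesterol synthesis genes 13 were positive (61.9%) and 3 negative (14.3%) at both times, beside 37% and 34.5% of all genes. The medians were 0.13 and 0.10. IDI1, the isopentenyl diphosphate isomerase, had 259 and 310.4, against 176 in the control (0.51 and 0.76). CYP51A1, the lanosterol demethylase, had 221 and 193, against 154 (0.48 and 0.29). Of 15 fatty acid synthesis genes 6 were positive and 4 negative at both times, with medians of 0.02 and 0.03. Among 29 hypoxia and glycolysis genes 6 were positive and 15 negative. CA9, a carbonic anhydrase induced by hypoxia, had 197 and 159, against 259 in the control (-0.37 and -0.66), while P4HA2, a collagen prolyl hydroxylase, had 0.55 and 0.43. Aminoacyl-tRNA synthetases had 4 of 21 positive and 13 negative, with medians of -0.10 and -0.06, and FARSB, which charges phenylalanine, had 9426 and 9270, against 11458 on the control.

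**Figure D5:**
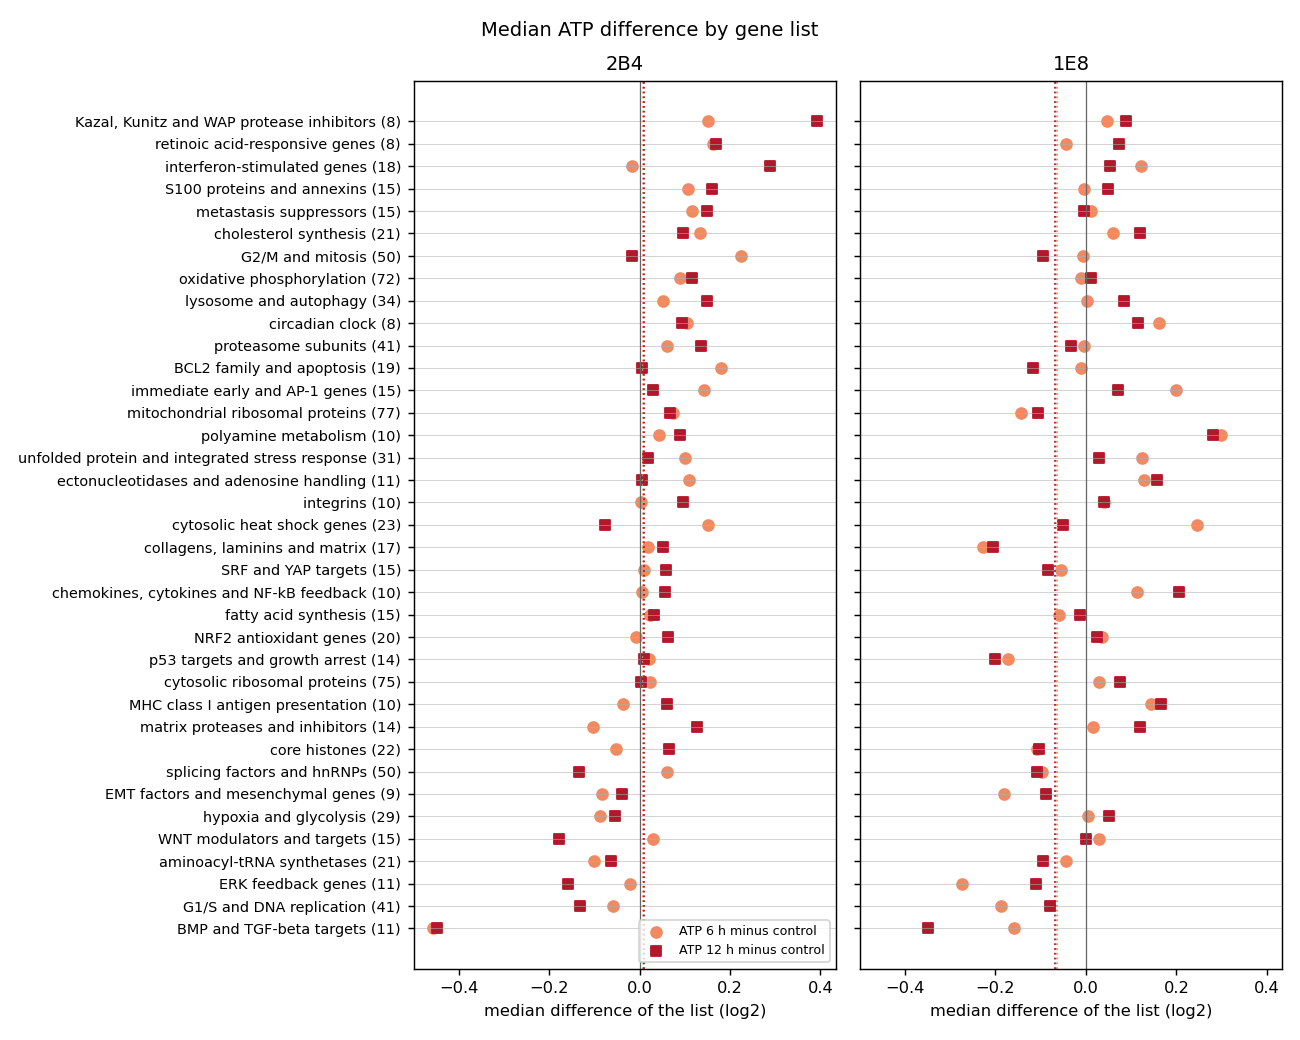
Median ATP minus control (log2 of intensity + 16) at 6 h (circles) and 12 h (squares) for each gene list with 8 or more genes counted, in 2B4 (left) and 1E8 (right); the number counted is in brackets and dotted lines are the medians of all genes. In 2B4 the BMP and TGF-beta list lies lowest, at -0.46 and -0.45. The interferon list is at -0.02 and 0.29, and takes in genes counted only through the ATP arrays.

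No gene of the 2 cell cycle lists passed 1.5-fold at both times. Of 41 G1/S and DNA replication genes 23 were negative (56.1%) and 5 positive (12.2%) at both times, beside 34.5% and 37% of all genes, with medians of -0.06 and -0.13. ORC1, of the origin recognition complex, had 95.0 and 86.2 with ATP, against 125 in the control (-0.34 and -0.46). PRIM1, the DNA primase, had 510 and 591, against 702 (-0.45 and -0.24). Of 50 G2/M and mitosis genes 20 were positive (40%, near the share of all genes) and 8 negative (16%) at both times, and the medians were 0.23 at 6 h and -0.02 at 12 h. AURKA, a mitotic kinase, had 993 at 6 h and 608 at 12 h, against 526 in the control (0.90 and 0.20), and GTSE1, a microtubule-associated mitotic protein, had 222 and 134, against 117 (0.84 and 0.18). CDCA3 was close to equal at both times, with 356 and 353, against 271. The histone list had 7 of 22 genes positive and 9 negative. No core histone passed 1.5-fold at both times. H1-10, a linker histone on the same list, was lower by that much at both times, and since histone genes are near-identical copies the values of the core histone genes are uncertain.

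Splicing factors had 17 of 50 negative (34%) and 10 positive (20%) at both times, beside 34.5% and 37% of all genes. The medians were 0.06 and -0.13. SYNCRIP, an RNA-binding hnRNP, had 535 and 373, against 819 in the control (-0.60 and -1.10), with -0.69 and -0.86 in 1E8. SRSF5, a serine and arginine-rich splicing factor, had 774 and 1087, against 1603 (-1.04 and -0.55). Of 19 BCL2 family and apoptosis genes counted 10 were positive and 4 negative at both times, with medians of 0.18 and 0.00. BAK1, a pore-forming death protein, was the 1 past 1.5-fold at both times, where 0.724% of all genes passed upward. It had 49.7 and 29.9, against 13.4, all but the 6 h value under the limits.

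Genes for matrix, proteases and adhesion were read because the pair of subclones was derived for metastasis. Of 17 matrix genes counted 8 were positive (47.1%) and 2 negative (11.8%) at both times, beside 37% and 34.5% of all genes. COL1A2 was the 1 past 1.5-fold at both times, downward, where 0.795% of all genes passed. FBN2, a fibrillin of elastic microfibrils, had 436 and 487, against 289 in the control (0.57 and 0.72), and in 1E8 663 and 629, against 289. COL7A1, the anchoring fibril collagen, had 88.1 and 86.4, against 54.8 (0.55 and 0.53). SERPINE2, an inhibitor of thrombin and plasminogen activators, had 5736 and 6562, against 4474 (0.36 and 0.55). MMP1 and MMP13, collagenases, had -0.31 and -0.39 and -0.35 and -0.57. Integrins lay near their controls, with medians of 0.00 and 0.10 over 10 genes.

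Of 8 Kazal, Kunitz and WAP-type protease inhibitors counted 5 were positive and 1 negative at both times. Over all genes 37% and 34.5% were, and the medians of the 8 were 0.15 and 0.39. Beside SPINK13, PI3, the elastase inhibitor elafin, had 315 and 318, against 208 in the control (0.56 and 0.58). SLPI, the leukocyte protease inhibitor of secretions, had 427 and 538, against 379 (0.17 and 0.49). MUC5AC, a gel-forming mucin, had 598 and 546, against 419 (0.50 and 0.37), and in 1E8 1137 and 912, against 435. S100P, a calcium-binding protein, had 977 and 1291, against 783 (0.31 and 0.71).

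Genes of mesenchymal and prostate identity went both ways. CDH11, a mesenchymal cadherin, had 0.68 and 0.58 in 2B4, and in 1E8 it was under the limit on both ATP arrays and barely above it on the control array. TWIST1, a factor of epithelial to mesenchymal transition, had 134 and 155, against 197 in the control (-0.51 and -0.32), and in 1E8 0.57 and 0.52 (limma difference -0.96, adjusted p = 0.264). HOXB13, the homeobox factor of prostate lineage, had 402 and 421, against 652 (-0.68 and -0.61). Of 15 metastasis suppressor genes counted 9 were positive (60%) and 2 negative (13.3%) at both times, beside 37% and 34.5% of all genes. The medians were 0.12 and 0.15. BRMS1, of that list, had 997 and 948, against 870.4 (0.19 and 0.12). None of the 15 passed 1.5-fold at both times.

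GPRC5A, a retinoic acid-induced receptor of airway epithelium, had 569 at 6 h and 365 at 12 h, against 277 in the control (1.00 and 0.38), and in 1E8 358 and 244, against 94.5. RDH10, a retinol dehydrogenase, had 597 and 686, against 454 (0.38 and 0.58), while DHRS3, which reduces retinal back to retinol, had 379.6 and 434, against 585 (-0.60 and -0.42). SMOX, the spermine oxidase, had 87.8 and 67.4, against 35.9, under the control's limit, and in 1E8 199 and 71.3, against 38.4. MT1X, a zinc-binding metallothionein, had 1564 and 1718, against 1158 (0.43 and 0.56).

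Some genes differed from the control at 1 time only. H3-3B, the replication-independent histone H3.3, had 221 at 6 h and 87.0 at 12 h, against 99.4 in the control. RPL28, a ribosomal protein, had 199 and 113, against 98.2, and KHDC4, a splicing-associated RNA-binding protein, 994 and 541, against 580.0. Downward at 6 h, SLC20A1, a phosphate importer, had 823 and 1325, against 1474, and PIGM, an enzyme of GPI anchor synthesis, 344 and 515, against 589. At 12 h TELO2, a maturation factor of PI3K-related kinases, had 63.3 at 6 h and 197 at 12 h, against 55.6 (0.15 and 1.58). SLC30A1, a zinc exporter, had 103 and 173, against 86.7. CHRM3, a muscarinic receptor, had 151 and 73.6, against 149, and SLC38A2, an amino acid transporter, 819.6 and 522, against 975. Each of these values rests on 1 array. Set directly against 6 h, 161 genes (1.62%) were at least 1.5-fold higher at 12 h and 142 (1.43%) lower.

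The receptors for ATP were mostly below the limit. Of 17 P2 receptor genes with an entry, 16 were under the limit on all 3 2B4 arrays. P2RY11, a receptor for ATP, was above it at 6 h, with 87.3 at 6 h and 9.12 at 12 h, against 22.3 in the control, and showed the same order in 1E8 (84.7 and 19.1, against 41.1). P2RX4, an ATP-gated channel, had 35.0 and 42.8, against 24.6, and P2RY2, a receptor for ATP and UTP, 7.74 and 14.7, against 12.5. Low receptor messages are known to be hard to detect on arrays, and values under the limit are not evidence of absence. Of the ectonucleotidase and adenosine list 11 genes were counted. NT5E, the CD73 enzyme that makes adenosine from AMP, had 293 and 337, against 245 in the control (0.25 and 0.44), and SLC29A1, an equilibrative nucleoside transporter, 0.17 and 0.32.

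Against 1E8, 13 of the 72 genes higher in 2B4 were also at least 1.5-fold higher at both times there, and 10 of the 79 lower ones were lower. In 1E8 the corresponding counts over the same 9941 genes were 89 (0.895%) and 213 (2.14%). Of the 72, 43 had the same sign at both times in 1E8 and 19 the opposite sign. Of the 79, 55 had the same and 15 the opposite sign. Over all genes counted 29.9% were positive and 49.0% negative at both times in 1E8, so the 2 directions have unlike base shares. Genes that were called in both subclones included SPINK13 (1.22 and 1.10 in 1E8), MUC13 (1.88 and 0.79), SLIT2 (1.46 and 0.63) and RHOU (-1.17 and -0.65).

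limma's test of the 2B4 response minus the 1E8 response called 1 gene (0.0101%), LOC100132761, with -3.23. EPR1 (-2.67, adjusted p = 0.0581), SATL1 (-2.30, 0.123) and GSDMA, a pore-forming gasdermin (-2.26, 0.0581), followed. In these genes the 1E8 control array was low, with 13.6 for EPR1 and 26.1 for GSDMA, and the other 5 arrays were between 45.6 and 127. At the other end SNORA79 had 2.16, with a 2B4 control value of 6.47 that is under the limit. FMO4, a flavin monooxygenase, had 2.23 but was above the limit on only 1 of the 2B4 arrays, so its difference is one between values near background. LOC100132761 was the 1 gene past the threshold after adjustment, and it was not called with values under 50 set to 50. Its intensities are not given here, and whether its difference also rests on a low 1E8 control value was not tested.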

How the data were processed

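Total RNA was isolated with Trizol and RNeasy columns and amplified to biotin-labelled cRNA with the Illumina TotalPrep kit, per the labels' protocols. The deposited values are linear intensity values for 34594 entries, with negative values, and the array software is not given in the sources used here. A further table has 6 signal columns whose names match no sample, and these were not used. Entries named by a sequence cluster (3270) and further entries of a gene (489, the brightest kept) were left out. Of the entry names 17757 were current RefSeq symbols, 3303 unique synonyms and 13534 were kept as deposited. Negative values were replaced by 0 before log2(intensity + 16) was taken. The detection limit was the peak of the dim values plus 3 left-hand widths. limma 3.58.1 (R 4.3.3) fitted 4 groups (2B4 and 1E8, ATP and control) with Benjamini-Hochberg adjustment at 0.05, and was tested on simulated data. Nothing in the labels says that samples came from separate cultures, so the p-values reflect no more than the spread among these arrays, which may be technical. Alternatives covered the offset, a floor, scaling, quantile normalization, the filter, the fold, a time term, a variance trend and leaving out each array. The number of arrays limits the precision. Genes were named by rank of the smaller of the 6 h and 12 h differences (15 each way), by the 6 largest bounds each way, the 6 largest each way at 1 time alone, up to 4 members per list, the P2 receptors and the 5 extremes of the subclone difference. Others are said to be singled out, or belong to a list. The members, lists and rules were chosen with earlier results of these data known. Some genes are not reported here or drawn in the plots.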

Additional observations from a re-analysis of the deposited data

Results flagged for a closer look

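The response of LOC100132761 differed between the subclones in limma's test of the difference, by -3.23 (2B4 minus 1E8, log2, adjusted p = 0.0316). With values under 50 set to 50 it was not called. Signs were then compared for named genes above the limit on each 2B4 array and past 1.5-fold at both times in 2B4. Of these, 6 had opposite signs on every ATP array of the subclones and did not pass limma's test. They were RBM17 with 1.11, GNG13 with -1.74, EPR1 with -2.67, ID1 with -1.29, ZNF503-AS2 with -1.08 and H1-10 with -0.685, with adjusted p from 0.0581 (EPR1) to 0.273 (H1-10). GNG13 and EPR1 had 20.6 and 13.6 on the 1E8 control array, under its limit of 29.2. Other named genes outside that condition, TWIST1, SATL1 and GSDMA among them, also had opposite signs and did not pass the test. No group has enough samples for a check of single outlying samples.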

How the results depend on the processing

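The counts at both times (72 higher, 79 lower) depended on the fold limit and on how dim values were treated. They were 27 and 26 with an offset of 50 and 41 and 47 with an offset of 32. They were 32 and 45 among genes that exceeded the limit on each 2B4 array, 384 and 633 with no filter, 15 and 6 at 2-fold and 300 and 296 at 1.3-fold. At 12 h alone, without the 6 h array, the counts were 238 and 257, and at 6 h alone, without the 12 h array, 178 and 222. Scaling to 1 median and quantile normalization gave counts within 1.5 times of these. So did the floor of 50 (66 and 98), but those hold 42 of the 72 and 59 of the 79. Without the 2B4 control array no value can be had. Among named genes, no difference past 1.5-fold changed sign under the offsets, the floor, scaling or quantile normalization. Some fell to 0, as those of FMO4 did at both times. Signs of the other called genes were not checked. Under the alternatives 174 values of named genes moved by at least limma's SD for that gene. Of the list medians 11 moved by at least a fixed log2 step, which is no measure of spread.

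limma's 0 calls for ATP in 2B4 became 3 with an offset of 50 or of 32, 2 with arrays scaled to 1 median, 1 on genes bright on each 2B4 array, 162 with no filter, 8 with time as an added term and 3 with a variance trend, while leaving out 1 array gave 0 to 6 (6 without either 1E8 ATP array). The smallest adjusted p over these settings lay between 0.00142 and 0.33. SCARNA13 was among the calls of each of these settings that made calls, except with no filter. For the difference between subclones the 1 call became 5 with an offset of 50, 0 with the floor of 50, 6 with scaling to 1 median, 7 on genes bright on each 2B4 array, 199 with no filter, 29 with a time term and 69 with the trend, and leaving out 1 array gave 0 to 2 (0 without either 1E8 ATP array). The cause was not tested. No paired analysis was possible because the groups share only replicate number 1, with 1 array each.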
